A study of Homo sapiens with 5 samples.

Results

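Immediate early genes are the first genes that a cell transcribes when a growth factor, cytokine or stress reaches it, because the factors that switch them on are already present. The 10 genes described here are the members of this class that were chosen by symbol, JUN, JUNB, JUND, FOSB, FOSL1, EGR1, IER2, IER3, KLF10 and MYC, and each has a row among the 4202 genes of the deposited table. FOS itself was not analysed here. They were followed in MDA-MB-231, an established human breast cancer line of the triple-negative, mesenchymal-like kind, by sequencing of total RNA. There were 5 libraries, 1 per condition, all taken after 4 h: a mock-treated culture, CGI-1746 (an inhibitor of the kinase BTK, per the labels), LU-102 (labelled as the submitters' own inhibitor), CGI-1746 plus LU-102, and bortezomib, a proteasome inhibitor that served as the control for pathways altered by blocking the proteasome. The labels give no doses.

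The JUN proteins (JUN, JUNB and JUND) and the FOS proteins (here FOSB and FOSL1, also called FRA-1) pair through leucine zippers into the transcription factor AP-1, which binds the AP-1 site and the closely related cyclic AMP response element (CRE). MAP kinases drive their genes through serum response factor at CArG boxes, through factors of the CREB and ATF family at CREs, and through AP-1 itself. The JUN, FOS and MYC proteins are short-lived and are removed largely by the proteasome, and their messenger RNAs also turn over quickly.

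All 7 mesenchymal markers looked for were measured, with VIM at a level of 92.1 and AXL at 17.7 in the mock library, against 3 of 6 epithelial markers, the keratins KRT8 (2.02), KRT18 (35.5) and KRT19 (12.1). EPCAM, CDH1, ESR1, PTPRC and PECAM1 were not analysed here. The deposited levels behaved as reads per length of the whole gene span, introns included. If they are RPKM (reads scaled to gene length and library total), the implied library totals range from 1.68e+07 to 1.86e+07 reads. The bortezomib library stood apart: 2231 genes had a level of 1 or more in it, against 4161 to 4177 in the other libraries. No gene analysed here had 5 levels that summed to less than 5.04. In libraries that lie close together, that alone keeps most genes near or above 1, so these are not counts of detected genes. The 5 highest genes held 73.8% of the summed levels of the bortezomib library, against 55.9% to 65.9% elsewhere. Replicate error cannot be given for conditions of 1 library each, and no difference below has a test. The 95% intervals are exact Clopper-Pearson intervals on the reads recovered from the levels and cover counting error only. Reads amplified by PCR are not independent molecules, so even that error may be understated.

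The promoters of 4 of the 10 genes are shown first, because these genes differed in their levels with bortezomib: JUND and FOSB were several-fold higher, JUN was close to mock and EGR1 was lower. RefSeq promoters (GRCh38.p14) matched 6 of the 10 genes, JUN, JUNB, JUND, FOSB, IER2 and EGR1. Each line gives the 250 bases before the annotated start, 5′ to 3′ along the gene. JUND is on the minus strand of chr19:18281623-18281872, FOSB on the plus strand of chr19:45467746-45467995, JUN on the minus strand of chr1:58784048-58784297 and EGR1 on the plus strand of chr5:138465229-138465478. Capitals mark the CRE core TGACGT or its reverse complement (JUND, FOSB and EGR1), the AP-1-like element TGACATCA of the JUN promoter, CArG boxes (EGR1) and the TATA core TATAA (JUND and FOSB).
JUND: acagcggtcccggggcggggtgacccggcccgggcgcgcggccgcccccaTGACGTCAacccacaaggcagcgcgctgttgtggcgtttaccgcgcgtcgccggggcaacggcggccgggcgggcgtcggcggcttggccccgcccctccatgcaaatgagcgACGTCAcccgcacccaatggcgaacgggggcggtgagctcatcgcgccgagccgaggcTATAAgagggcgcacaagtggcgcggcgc
FOSB: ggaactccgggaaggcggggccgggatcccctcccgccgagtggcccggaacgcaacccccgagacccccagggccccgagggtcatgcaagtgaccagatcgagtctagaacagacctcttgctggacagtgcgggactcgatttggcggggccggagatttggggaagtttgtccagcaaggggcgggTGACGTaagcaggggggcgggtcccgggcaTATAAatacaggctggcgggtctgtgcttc
JUN: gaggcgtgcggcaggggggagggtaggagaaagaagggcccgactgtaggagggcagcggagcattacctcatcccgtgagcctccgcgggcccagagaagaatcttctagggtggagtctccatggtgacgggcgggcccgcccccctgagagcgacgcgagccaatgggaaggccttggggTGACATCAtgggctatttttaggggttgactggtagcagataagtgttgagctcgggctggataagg
EGR1: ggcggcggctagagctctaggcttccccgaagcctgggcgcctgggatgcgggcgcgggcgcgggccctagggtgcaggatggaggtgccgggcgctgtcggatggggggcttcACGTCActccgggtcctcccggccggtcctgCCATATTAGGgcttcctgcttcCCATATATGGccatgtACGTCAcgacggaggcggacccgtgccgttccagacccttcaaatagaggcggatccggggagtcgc

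Every motif was searched on both strands. The full CRE, TGACGTCA, was found in 1 of the 6 promoters, that of JUND, 200 bases before the start, and in 1.65% of all 35116 promoters of the same length. Its core TGACGT, which the full CRE contains, was found in JUND, FOSB and EGR1 and in 7.10% of all promoters. In FOSB it lay 60 bases before the start, and in EGR1 it lay 136 and 67 bases before. JUND carried another core 87 bases before its start. TGACATCA lay 67 bases before the start of JUN and occurs in 2.37% of promoters. The palindromic AP-1 site, TGANTCA, was in none of the 6 and in 6.57% of all. EGR1 held both CArG boxes, 105 and 83 bases before its start, and 1.16% of promoters hold at least 1. TATAA stood about where a TATA box sits in FOSB, JUNB and JUND (30, 31 and 29 bases before the start) and was in 18.9% of all promoters. CCAAT was found in JUN, JUNB and JUND (32.0% of all), and the GC box GGGCGG in FOSB, JUN, JUND and IER2 (42.6% of all). GAANNTTC, part of the heat shock element, was found in JUN (5.78% of all), and CACGTG, the E-box bound by MYC, in none of the 6 (6.34% of all). These are letter matches and not measured binding.

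**Figure D1:**
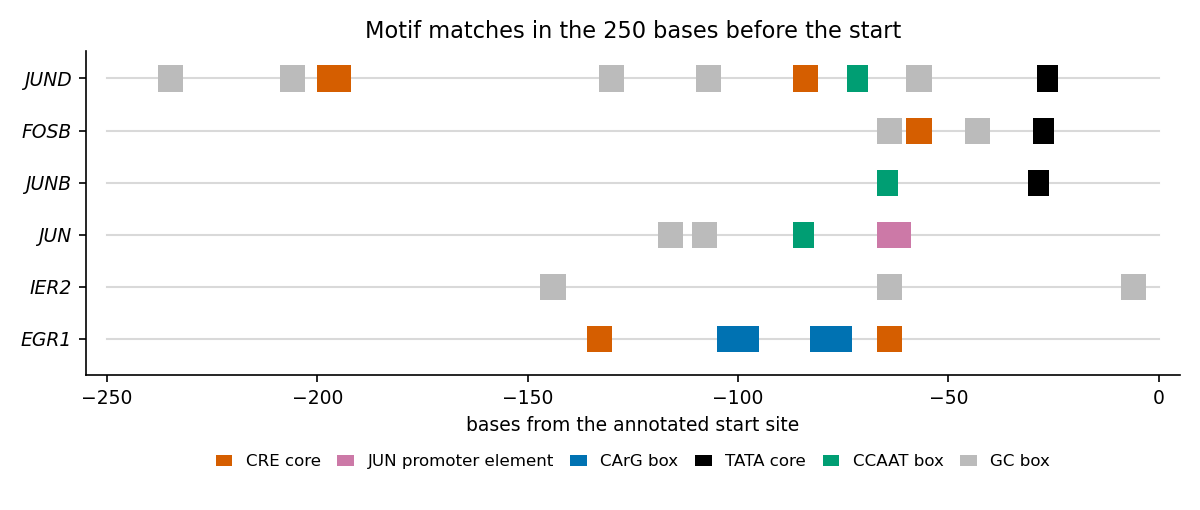
Motif matches in the 250 bases before the annotated start of 6 genes, one row per gene, with the position in bases on the horizontal axis. CRE cores lie in the rows of JUND, FOSB and EGR1, the CArG boxes lie in the EGR1 row, and TATA cores stand near the start in JUND, FOSB and JUNB.

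In mock-treated cells the 10 genes spanned levels from 1.31 to 111. IER3, which encodes a small protein linked to cell survival, was the highest at 111 (2520 reads). JUN followed at 18.4 (1011 reads), JUND at 15.8 (512 reads), FOSL1 at 14.2 (2032 reads) and MYC at 13.1 (1657 reads). IER2 stood at 7.06 (535 reads) and KLF10 at 5.61 (656 reads). JUNB at 2.04 (63 reads), EGR1 at 1.80 (116 reads) and FOSB at 1.31 (159 reads) were the lowest. Neighbours in this order could not all be separated: the counting intervals of JUND (14.4 to 17.2) and FOSL1 (13.6 to 14.9) overlapped, as did those of FOSL1 and MYC (12.5 to 13.7), and so did those of JUNB (1.57 to 2.62), EGR1 (1.49 to 2.16) and, with EGR1, FOSB (1.12 to 1.54). These are levels per base of gene span, so a gene with long introns is placed lower than its messenger RNA alone would place it.

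**Figure D2:**
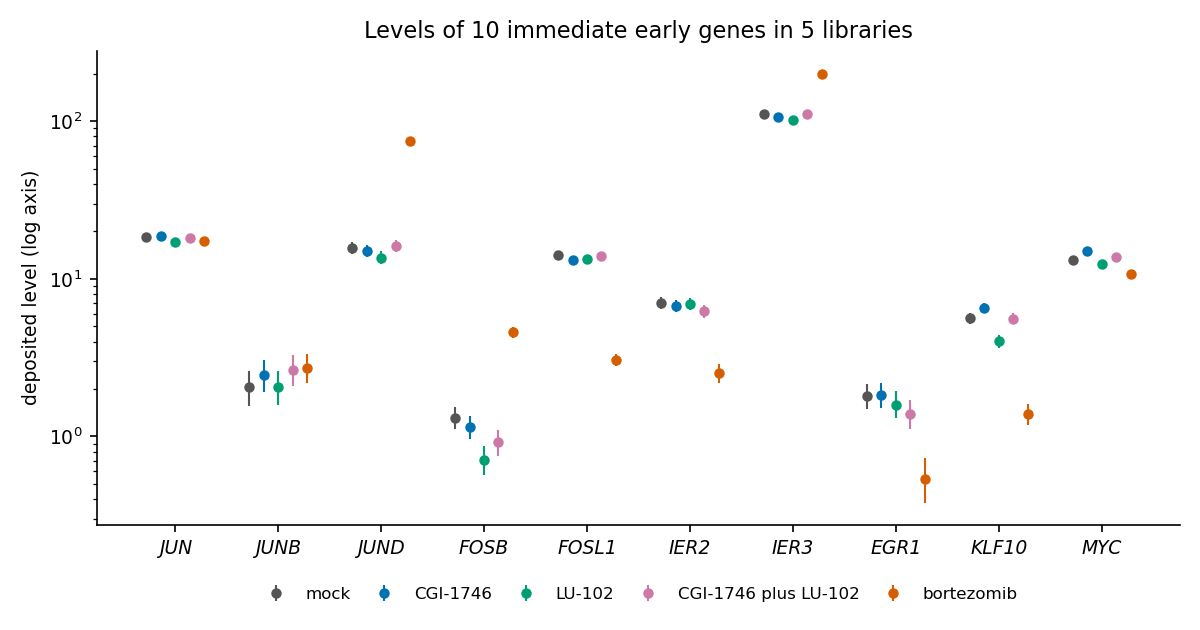
Deposited level of each of the 10 genes in the 5 libraries, on a log axis, with 95% counting intervals as bars. For JUND, FOSB and IER3, and narrowly for JUNB, the bortezomib point lies above the other 4, for FOSL1, IER2, EGR1, KLF10 and MYC it lies below them, and for JUN it lies among them.

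In the levels as deposited, the JUN family divided into a gene that was several-fold higher with bortezomib and others that were near mock. JUND, the family member usually described as constitutively expressed, was at 15.8 in mock, 15.04 under CGI-1746, 13.6 under LU-102, 16.1 under both agents and 75.3 under bortezomib. The bortezomib library was alone, with 2700 reads against 448 to 529 in the others. Its ratio to mock was 4.77 (95% counting interval 4.34 to 5.26). By difference from mock on the log2(level + 1) scale, 2.19, JUND ranked 27 among the 4189 genes compared and 2 among the 3903 protein-coding genes, after WDR74. JUND is an intronless gene on chromosome 19 (18279694 to 18281622, GRCh38).

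JUN, the founding member of the family and a target of its own product, was at 18.4 in mock, 18.8 under CGI-1746, 17.1 under LU-102, 18.1 under both agents and 17.3 under bortezomib. The 5 levels lay close together, and the counting interval of each ratio to mock held 1 (bortezomib 0.939, 0.861 to 1.03). JUN is also intronless, on chromosome 1 (58780791 to 58784047).

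JUNB, which can oppose JUN at shared targets, was at 2.04 in mock, 2.44 under CGI-1746, 2.05 under LU-102, 2.64 under both agents and 2.70 under bortezomib. These levels rest on 63 to 92 reads. The ratio of bortezomib to mock was 1.32 (0.949 to 1.85), so in the levels as deposited a difference was not detectable at this depth. Under each other scaling tried JUNB was 2-fold or more higher, with the values given beside the all-gene split. JUNB is intronless as well (chromosome 19, 12791486 to 12793315), and 865 bases of its span overlap HOOK2. The sources used here do not say whether counting used strand, so its reads are uncertain to that extent.

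FOSB was higher and FOSL1 lower with bortezomib. FOSB was at 1.31 in mock, 1.15 under CGI-1746, 0.709 under LU-102, 0.917 under both agents and 4.57 under bortezomib. It was highest with bortezomib (611 reads against 87 to 159) and lowest with LU-102. Its ratio to mock was 3.48 (2.92 to 4.17) with bortezomib and 0.539 (0.410 to 0.705) with LU-102. FOSB has up to 5 exons in a 7184-base span on chromosome 19 (45467996 to 45475179).

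FOSL1, the FOS family gene best known for high expression in mesenchymal-like breast cancer cells, was at 14.2 in mock, 13.2 under CGI-1746, 13.3 under LU-102, 13.9 under both agents and 3.06 under bortezomib. The first 4 libraries held 1902 to 2032 reads and the bortezomib library 483. The ratio of bortezomib to mock was 0.215 (0.194 to 0.238), the lowest of the 10 genes. In mock FOSL1 exceeded FOSB by level, and in the bortezomib library FOSB (4.57, interval 4.22 to 4.95) exceeded FOSL1 (3.06, interval 2.80 to 3.35) per base of gene span. That order rests on the length used: per kilobase of the longest transcript FOSL1 (289 reads) stayed above FOSB (162 reads) with bortezomib. FOSL1 lies on chromosome 11 (65892049 to 65900545).

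Of the 5 genes outside the JUN and FOS families, IER3 was higher and IER2, EGR1, KLF10 and MYC were lower with bortezomib in the levels as deposited. The direction of MYC turned under each other scaling tried, that of EGR1 under centring and that of IER2 under 1 scaling, with the values given beside the all-gene split. IER3 was at 111 in mock, 106 under CGI-1746, 101 under LU-102, 111 under both agents and 199 under bortezomib. The bortezomib library again stood above the rest, and the ratio to mock was 1.79 (1.71 to 1.88). IER3 (chromosome 6, 30743199 to 30744547) shares 475 bases with the antisense gene IER3-AS1, whose reads cannot be told apart if strand was not used.

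IER2, which encodes a nuclear protein of poorly defined function, was at 7.06 in mock, 6.74 under CGI-1746, 6.89 under LU-102, 6.21 under both agents and 2.51 under bortezomib. The ratio of bortezomib to mock was 0.355 (0.302 to 0.418). IER2 is on chromosome 19 (13150411 to 13154911). EGR1, a zinc finger transcription factor and a classical target of serum response factor, was at 1.80 in mock, 1.83 under CGI-1746, 1.59 under LU-102, 1.38 under both agents and 0.534 under bortezomib. Its ratio to mock was 0.297 (0.200 to 0.431) with bortezomib, on 38 reads against 116. EGR1 lies on chromosome 5 (138465479 to 138469303).

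KLF10, a zinc finger repressor first described as a TGF-beta-inducible early gene, differed among the non-bortezomib libraries as well. It was at 5.61 in mock, 6.53 under CGI-1746, 4.002 under LU-102, 5.59 under both agents and 1.39 under bortezomib. LU-102 was low and CGI-1746 high among the first 4 libraries, and bortezomib was lowest of all, with a ratio to mock of 0.247 (0.208 to 0.292). MYC, which pairs with MAX and drives genes of growth and ribosome production, was at 13.1 in mock, 14.9 under CGI-1746, 12.4 under LU-102, 13.7 under both agents and 10.7 under bortezomib. Its ratio to mock was 0.820 (0.764 to 0.880) with bortezomib. Among the 4 libraries other than bortezomib the highest level was 1.85 times the lowest for FOSB, 1.63 times for KLF10, 1.32 times for EGR1 and 1.29 times for JUNB. It was 1.08 to 1.21 times for the other 6 genes.

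The comparison of bortezomib with mock has to be read beside a library-wide difference. On the log2(level + 1) scale 2 of the 10 genes, JUND (2.19) and FOSB (1.27), were 2-fold or more higher, against 1.38% of the 4189 genes compared. No gene analysed here had 5 levels that summed to less than 5.04. FOSB summed to 8.66, of which bortezomib gave 4.57, so without that library it would fall under the lowest sum. The place of FOSB in this count is therefore not independent of its high level with bortezomib. FOSL1 (-1.91), KLF10 (-1.47) and IER2 (-1.20) were 2-fold or more lower, against 48.1% of all genes. EGR1 was at -0.87 on this scale, which understates differences of low genes. The median of all genes was -0.98 and that of the 10 genes was -0.17, and 7 of the 10 lay above the all-gene median. Less that median, JUND stood at 3.17, FOSB at 2.25, IER3 at 1.81, JUNB at 1.26, JUN at 0.89, MYC at 0.71 and EGR1 at 0.11. IER2 (-0.22), KLF10 (-0.49) and FOSL1 (-0.93) remained below it. The sides of IER2 and EGR1 rest on the pseudocount. Without one, a setting chosen after seeing the data, the all-gene median was -1.63. IER2 (-1.49) then lay above it and EGR1 (-1.75) below it. By counting interval 3 of the 10 genes were higher and 5 were lower, against 5.66% and 87.3% of the 2068 genes with recovered reads.

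How the bortezomib library is scaled changes this split. The deposited levels put 58 genes at 2-fold or more over mock and 2015 at 2-fold or more under it. A median-of-ratios scaling over genes at 5 or more in every library (the 5-library scaling) turned this into 208 and 727, and 4 of the 10 genes were higher and 1 lower. With factors from genes at 5 or more in the other 4 libraries (the 4-library scaling) it was 602 and 268, with 6 of the 10 higher and 0 lower, and IER2 turned from -1.20 to 0.21. MYC, at -0.26 as deposited, stood at 0.64, 1.38 and 0.71 under the 5-library scaling, the 4-library scaling and centring. JUN, at -0.09 as deposited, stood at 0.84, 1.59 and 0.89 in the same order, and EGR1 turned from -0.87 to 0.11 when centred. That turn of EGR1 rests on the pseudocount: without one, EGR1 (-1.75) lay below the all-gene median (-1.63). For all genes, centring on the all-gene median gave 315 and 328, with 4 of the 10 higher and 0 lower. JUNB, at 0.28 as deposited, stood at 1.01, 1.71 and 1.26 under the 5-library scaling, the 4-library scaling and centring. IER3, at 0.83 as deposited, stood at 1.80, 2.56 and 1.81 in the same order. JUND and FOSB were 2-fold or more higher under each of these scalings, but FOSB was at 0.60 with a pseudocount of 5, which is under 2-fold.

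**Figure D3:**
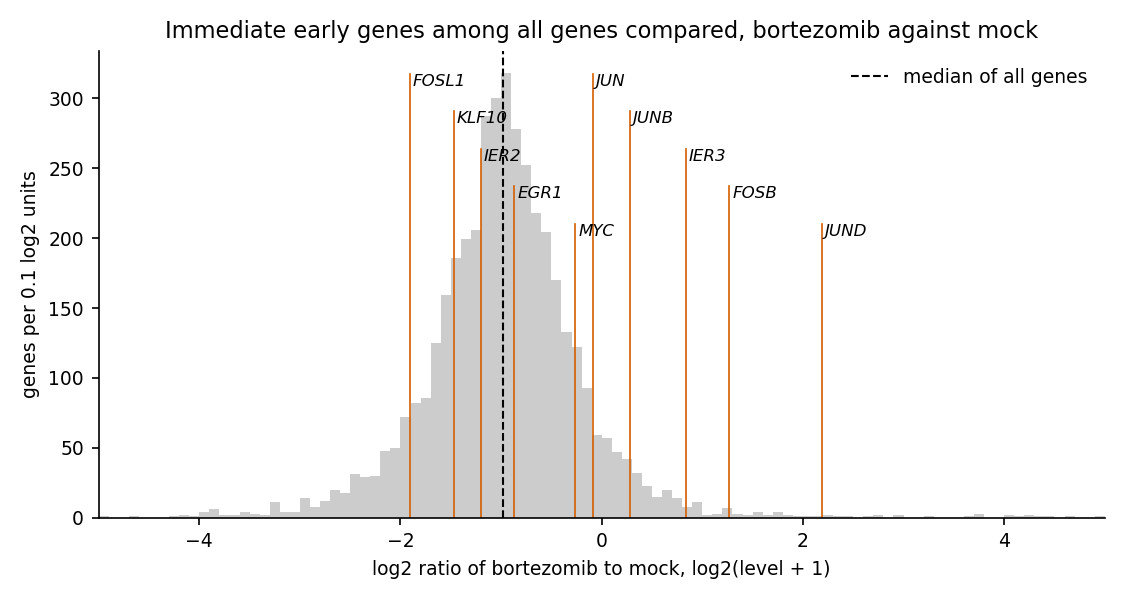
Histogram of the log2 ratio of bortezomib to mock over the 4189 genes compared, on log2(level + 1), with the 10 genes drawn as labelled lines and the all-gene median of -0.98 dashed. JUND, FOSB, IER3 and JUNB lie to the right of 0, and FOSL1, KLF10 and IER2 lie to the left of the all-gene median.

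Of the 58 genes 2-fold or more higher with bortezomib, 21 were protein-coding, which is 0.538% of the 3903 protein-coding genes compared, and JUND and FOSB were 2 of them. FOSB, as given above, reaches the lowest summed level only through its bortezomib level. CEBPB, another intronless gene for a leucine zipper factor (5.01 in mock and 14.1 with bortezomib), and HSPA6, a heat shock protein gene (1.43 and 4.44), were also among them. WDR74, CEBPB and HSPA6 were named after their values were seen. Genes with 1 exon made up 7 of the 21. Of 126 such genes other than histones, the median difference was -0.69 and 7 were 2-fold or more higher, against a median of -0.99 and 14 higher among 3733 genes with 2 or more exons. The 34 histone genes left out had a median of -2.27, and 31 of them were 2-fold or more lower. With them, the 160 genes with 1 exon had a median of -0.92, close to that of the genes with more exons. JUN, JUNB and JUND all have 1 exon, and their differences of -0.09, 0.28 and 2.19 lay above each of these medians. Base composition moved with the difference too: the 973 genes with the highest GC content had a median of -0.67 and held 16 of the 21 higher genes, against -1.10 and 1 gene among the 974 with the lowest. The longest transcript of JUND has 69.7% GC, the highest of the 10, and that of KLF10 has 47.2%, the lowest. GC content did not order the 10 genes, however. FOSL1 and IER2, which were lower with bortezomib, have more GC than FOSB and IER3, which were higher. The part of exon number or base composition in the results was not tested.

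With CGI-1746 the 10 genes stayed near mock. None was 2-fold or more higher or lower, against 0.119% and 0.0478% of all genes, and the median of the 10 was -0.02, the same as that of all genes to 2 decimals. KLF10 (ratio 1.16, 1.05 to 1.29) and MYC (1.14, 1.07 to 1.22) had counting intervals above 1, and FOSL1 (0.927, 0.871 to 0.988) had one below 1. Those counts, 2 and 1 of the 10, compare with 10.7% and 20.1% of the genes with recovered reads. Under each of the 3 other scalings the interval of FOSL1 held 1, leaving 0 lower. The interval of FOSB (0.872, 0.690 to 1.10) held 1.

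LU-102 gave the lowest levels of FOSB and KLF10 among the 4 libraries without bortezomib. It also gave the lowest levels of JUN, JUND, IER3 and MYC there, but not of FOSL1, JUNB, IER2 and EGR1. None of the 10 genes was 2-fold or more higher or lower on the log2(level + 1) scale, against 0.0715% and 0.0% of all genes. FOSB had a ratio to mock of 0.539 (0.410 to 0.705, on 87 reads against 159) and KLF10 one of 0.714 (0.633 to 0.805, on 475 against 656). On the log2(level + 1) scale they stood at percentiles 0.215 and 0.477 of all genes. JUND (0.863, 0.758 to 0.981), IER3 (0.914, 0.863 to 0.967) and FOSL1 (0.935, 0.878 to 0.996) also had intervals below 1. The count of 5 of 10 genes lower by interval compares with 33.8% of genes with recovered reads, and 0 of 10 were higher against 11.0%. Under the other scalings the count lower was 2 or 3, and the all-gene share was not counted under them. The median of the 10 was -0.11, against -0.06 over all genes.

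With CGI-1746 plus LU-102 none of the 10 genes was 2-fold or more higher or lower than in mock, against 0.167% and 0.0477% of all genes. FOSB (0.698, 0.543 to 0.895) and IER2 (0.880, 0.776 to 0.997) had intervals below 1, which is 2 of 10 against 17.3%, and 0 of 10 were higher against 28.4%. Under the 5-library and 4-library scalings the count lower was 6 and 4. The all-gene median moved from 0.03 to -0.04 and -0.02 under them, and the all-gene share by interval was not counted there. EGR1 was at 0.769 of its mock level (0.577 to 1.02) and JUNB at 1.29 times (0.918 to 1.82), with intervals that held 1. The median of the 10 was -0.02, against 0.03 over all genes. KLF10 with both agents (5.59) was close to mock (5.61), at a ratio of 0.997 (0.894 to 1.11).

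**Figure D4:**
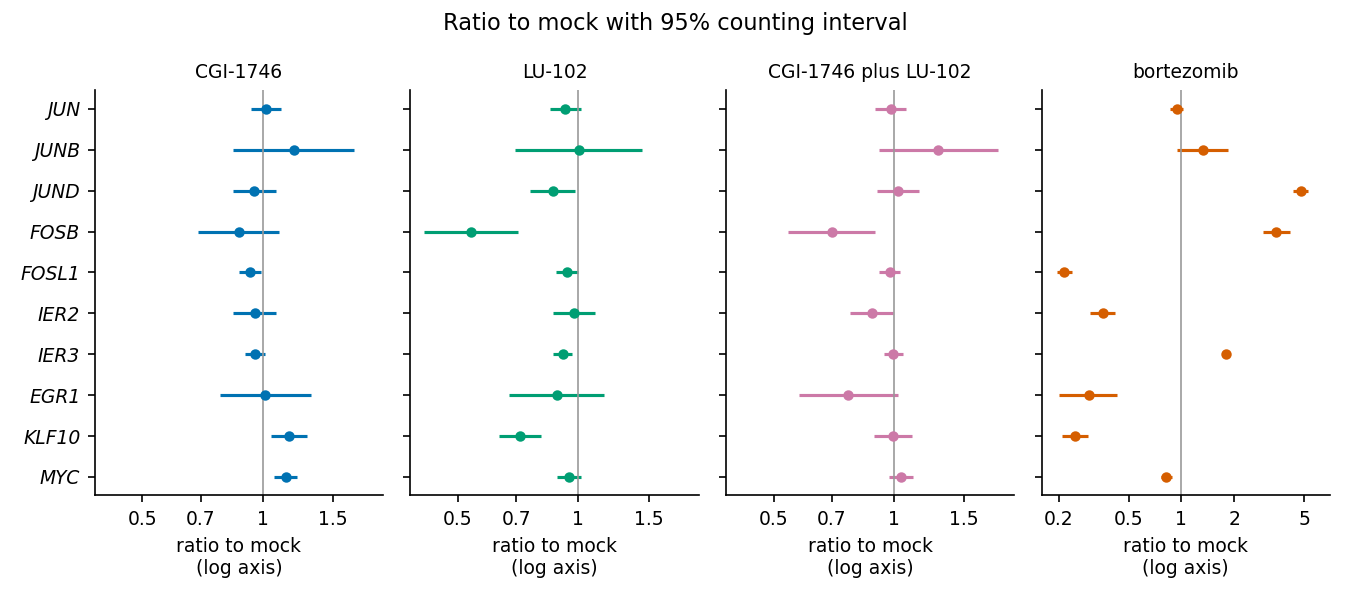
Ratio of each gene's level to its mock level in the 4 treatments, on log axes, with 95% counting intervals and a line at 1; the bortezomib panel has a wider axis than the other 3. FOSB and KLF10 stand left of 1 with LU-102, and with bortezomib JUND, FOSB and IER3 stand right and FOSL1, KLF10, EGR1, IER2 and MYC left.

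The agents were also set against one another at the shared time, with doses not given. KLF10 was 1.63 times as high with CGI-1746 as with LU-102 (1.45 to 1.83), the only gene of the 10 past 1.5-fold on the log2(level + 1) scale there, where 0.381% of all genes were that much higher and 0.429% that much lower. None was past 2-fold in either direction, against 0.0715% and 0.0238% of all genes. FOSB was 1.62 times as high (1.23 to 2.14), MYC 1.21 times (1.13 to 1.29) and JUN 1.10 times (1.003 to 1.20). Those 4 of 10 genes with intervals above 1 compare with 25.2% of genes with recovered reads, and 0 of 10 were lower against 8.66%. The combination exceeded LU-102 alone for KLF10 (ratio 1.40, 1.24 to 1.57), JUND (1.19, 1.04 to 1.35), MYC (1.10, 1.03 to 1.18) and IER3 (1.09, 1.03 to 1.15). These 4 of 10 compare with 38.5% of genes with recovered reads higher, and 0 of 10 lower with 4.11%. The all-gene median there was 0.08, with 80.0% of genes above 0, and MYC (0.13) and IER3 (0.12) were close to it; under each other scaling 1 gene of the 10 had an interval above 1. The combination was below CGI-1746 alone for KLF10 (0.856, 0.771 to 0.951) and MYC (0.913, 0.855 to 0.975), 2 of 10 against 6.87%, and 0 of 10 were higher against 25.3%. Under the 5-library and 4-library scalings the count lower was 7 and 6. The all-gene median there moved from 0.04 to -0.06 and -0.03. The share of all genes lower by interval was not counted under these scalings, so 6.87% is no measure for them. These comparisons share libraries and are not independent of one another.

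LU-102 and bortezomib differed widely for the same genes, in a comparison where 92.5% of all genes were higher with LU-102 and the all-gene median was 0.91 on the log2(level + 1) scale. JUND with LU-102 was at 0.181 of its level with bortezomib (0.163 to 0.200), FOSB at 0.155 (0.122 to 0.194) and IER3 at 0.510 (0.486 to 0.536). FOSL1 was 4.34 times as high with LU-102 (3.93 to 4.81), EGR1 2.98 times (2.04 to 4.44), KLF10 2.89 times (2.43 to 3.45) and IER2 2.75 times (2.34 to 3.24). The ratio for JUN was 0.988, with an interval of 0.904 to 1.08. By interval 5 of the 10 genes were higher with LU-102 and 3 lower, against 87.4% and 5.32% of genes with recovered reads. On the log2(level + 1) scale EGR1 (0.76) and MYC (0.19) lay below the all-gene median and KLF10 (1.07) and IER2 (1.17) a little above it. Without the pseudocount the all-gene median was 1.56, and EGR1 was instead just above it and KLF10 and IER2 just below. MYC was instead lower with LU-102 under each of the 3 other scalings (-0.68, -1.40 and -0.73), EGR1 under the 4-library scaling and centring (-0.062 and -0.16), and KLF10 and IER2 under the 4-library scaling (-0.12 and -0.19).

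The combination was also compared with the sum of the single agents' log2 differences from mock. None of the 10 genes departed from that sum by 1 log2 unit or more, against 0.143% of 4197 genes. The largest departures among them were those of JUND (0.30), FOSB (0.27), KLF10 (0.21) and IER3 (0.19), and the lowest was that of EGR1 (-0.14). The median of the 10 was 0.12 and that of all genes 0.10, so a departure of that size was common. For FOSB without the pseudocount the departure was 0.57 with a counting interval of 0.05 to 1.09. The intervals of JUND (0.06 to 0.57), KLF10 (0.04 to 0.49), IER3 (0.07 to 0.30) and FOSL1 (0.04 to 0.30) were also wholly positive. Those of JUN, JUNB, IER2, EGR1 and MYC included negative values. No interval lay wholly above the all-gene median of 0.10, which was taken on the log2(level + 1) scale. The share of all genes with wholly positive intervals was not counted, and the intervals were not recomputed under the other scalings.

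Related genes gave a frame for these values, and 7 lists were followed. None of their genes was 2-fold or more different from mock with CGI-1746, LU-102 or both. With bortezomib, none was 2-fold or more higher, and the counts lower are set beside the all-gene share of 48.1%. Among 5 partners of the AP-1 proteins, 1 was lower, FOSL2 (7.20 in mock and 2.33 with bortezomib), which encodes a close relative of FOSL1. ATF4, the stress factor, went from 77.5 to 58.0 and MAFG from 7.67 to 5.97, and the median of the 5 was -0.41. Of 15 other immediate early genes 7 were lower, with a median of -0.76. They included CCN2 (309 and 100), CCN1 (461 and 180), ZFP36L2 (7.004 and 1.94) and ZFP36L1 (7.72 and 2.54), which encode secreted matrix proteins and messenger RNA decay factors. With bortezomib 4 of the 15 were above mock: IER5 (10.2 in mock, 16.3 with bortezomib), ID3 (7.16 and 8.60), GADD45B (10.4 and 12.2) and CSRNP1 (1.88 and 1.963), named after their values were seen.

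Among 9 upstream kinases and ETS or SRF factors 6 were lower, with a median of -1.18. NRAS went from 21.3 to 5.02, HRAS from 5.96 to 1.45, ELK4 from 8.11 to 2.81 and SRF, the factor that binds CArG boxes, from 13.3 to 7.78. Of 5 genes for degradation of FOS, JUN and MYC proteins 4 were lower, with a median of -1.18, among them the ubiquitin ligase adaptor DDB1 (7.65 and 2.01). Of 18 genes known as AP-1 targets 5 were lower, with a median of -0.77. They included F3 (40.3 and 10.3), HMGA1 (86.2 and 26.8) and CCND1 (62.3 and 22.4). CXCL8, the chemokine gene, stood at 15.4 in mock, 11.0 under CGI-1746, 11.8 under LU-102, 9.70 under both agents and 29.7 under bortezomib, and was named after its values were seen.

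Of 17 partners and targets of MYC 16 were 2-fold or more lower with bortezomib, with a median of -1.87 against -0.98 over all genes, while MYC itself was at -0.26. These 17 genes were all at 7.43 or more in mock, and the pseudocount shrinks the differences of lower genes. Among the 1385 genes at 5 or more in either library the median was -1.43, and 966 were 2-fold or more lower. NOP56 and FBL, of the ribosome-assembly machinery, went from 27.0 to 2.39 and from 9.64 to 0.713, LDHA from 59.4 to 8.38 and NME1 from 7.43 to 0.279. Of 8 TGF-beta and SMAD target genes other than JUNB 5 were lower, with a median of -1.19. BHLHE40 was at 7.06 in mock, 8.41 under CGI-1746, 5.63 under LU-102, 7.56 under both agents and 1.76 under bortezomib, and ID1 went from 20.1 to 8.14.

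**Figure D5:**
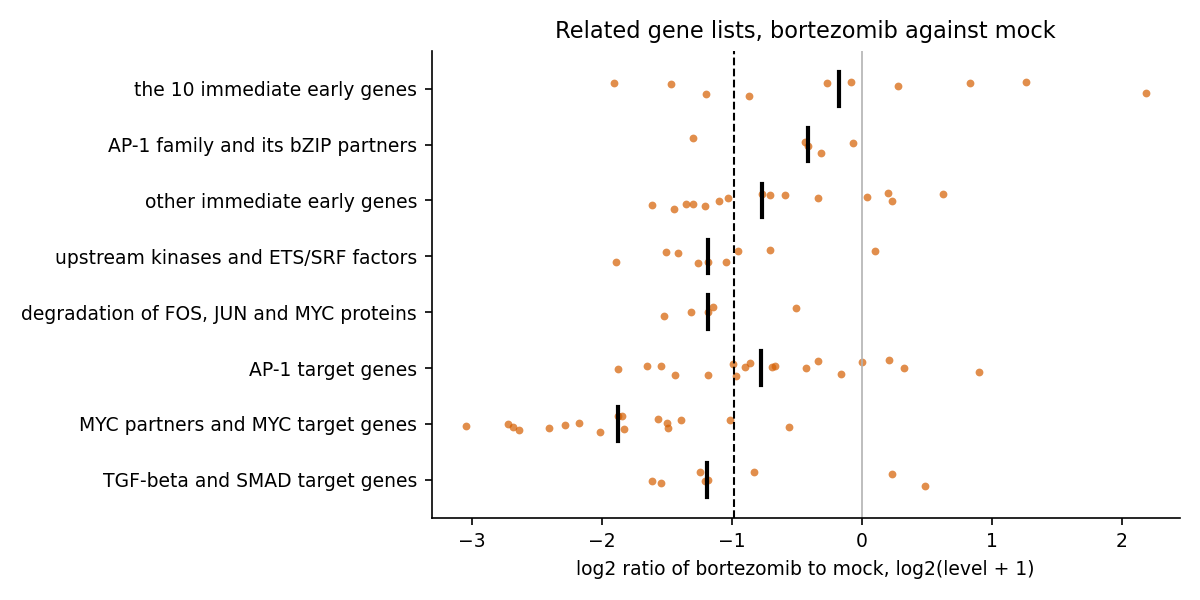
Log2 ratio of bortezomib to mock on log2(level + 1) for the 10 genes and for 7 related lists without them; each point is a gene, each black bar a list median and the dashed line the all-gene median. The MYC partners and targets have the lowest median (-1.87) and the 10 immediate early genes the highest (-0.17).

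Genes whose 4 log2 differences from mock were most like those of each gene were taken from genes at a level of 5 or more in mock, by root mean square distance over the 4 differences, which all share the mock library. KLF10 was closest to BHLHE40 (distance 0.09), and HSP90B1 was also near it (0.12). JUND was closest to the small Cajal body RNAs SCARNA16 and SCARNA2 (0.16 and 0.23) and to RTL8C (0.27). FOSB had no gene nearer than SNORA74A (0.25), followed by IER3 (0.30) and CXCL8 (0.31). IER3 was closest to UQCRHL, SELENOH and EXOSC6 (0.16 to 0.17). JUN was closest to TMEM250 (0.03), JUNB to ARL6IP4 and SQSTM1 (0.06 and 0.07), and MYC to MALAT1 and SLC20A1 (both 0.07). FOSL1 was closest to SUPT16H, EIF3F and CFL1 (all 0.04), and EGR1 to TSPYL4, AMIGO2 and C6orf47 (0.05 to 0.06). TRIM25 and ZBED6CL were near IER2 (both 0.05). The distances of JUND, IER3 and FOSB to their nearest genes were the largest of the 10.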

How the data were processed

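Total RNA of 5 libraries, 1 per condition, was sequenced with 150 bp paired reads, per the labels' protocols. Partek and hg38 are named, per the submitters' processing notes. Aligner, annotation, filter and use of strand: not given in the sources used here. For each gene and library the authors deposited a signal, named a least squares mean in the header. The authors also deposited the ratio (fold) of levels and the p-value and FDR of 6 comparisons, per the file headers. These p-values equal, to within 2.6e-05, a Wald test of Poisson counts with the levels put in as reads, so they measure no replicate spread and are not used for calls. A further 7 columns of per-library values were not used.

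The levels were found to be multiples of a fixed value per library divided by the length of the gene. With RefSeq gene spans, 2068 of 4124 matched genes (50.1%) gave steps of 0.5 reads, within 0.1 of a step, in all 5 libraries, and 99.6% of these were whole reads. Of the 10 genes, 8 were whole at the RefSeq span and 2, FOSL1 (19 bp shorter) and KLF10 (7 bp longer), at a length found by search within 500 bp. The plan had been to use exon lengths, but spans gave whole reads; whether a read is a pair, and whether intron reads were counted, is not stated. Deposited levels, with a pseudocount of 1 on the log2 scale, were compared for genes at 1 or more in either library, with a threshold of 2-fold. Counting intervals are 95% Clopper-Pearson intervals on the recovered reads. The method was tested on simulated data. GC content, exon numbers and longest transcripts came from GENCODE 29. Promoters came from RefSeq (GRCh38.p14). The tools were Python 3.11.15 with scipy 1.17.1, pandas 2.3.3 and numpy 2.4.6, and matplotlib 3.10.9 for figures.

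The 10 genes and the 7 related lists were chosen with earlier results of these data known, so they are a description and not an independent test. The text names all 10 genes, up to 4 genes per list with the largest difference from mock among those at 5 or more, and the 3 genes most like each of the 10. Some genes that this rule names are not reported here. Alternatives were other pseudocounts, filters, scalings and thresholds.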

Additional observations from a re-analysis of the deposited data

How the results depend on the processing

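Each condition has 1 library, so no library could be left out. No paired analysis was possible because each condition has 1 library. Of the values of single genes, 623 moved by less than their counting error, 130 moved by more and 19 reversed from a called value; of the counts and medians, 195 held and 85 moved. Of 685 log2 ratios of single genes, 44 took the other sign in all, 0 of them without a change of scaling. The 19 reversals were these, with the 5-library scaling taken over genes at 5 or more in every library and the 4-library scaling over genes at 5 or more in the libraries other than bortezomib. For bortezomib against mock, MYC was at 0.64 (5-library), 1.38 (4-library) and 0.71 (centred), EGR1 at 0.11 (centred) and IER2 at 0.21 (4-library). The EGR1 value rests on the pseudocount, without which EGR1 lay below the all-gene median. For LU-102 against bortezomib, MYC was at -0.68, -1.40 and -0.73 in the same order, EGR1 at -0.062 (4-library) and -0.16 (centred), IER2 at -0.19 and KLF10 at -0.12 (4-library). For the combination against bortezomib, MYC was at -0.68, -1.38 and -0.67, EGR1 at -0.26 (4-library) and -0.36 (centred) and IER2 at -0.43 (4-library). For the combination against LU-102, IER3 was at -0.012 (5-library).

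For bortezomib against mock, the 4-library scaling gave 6 of the 10 genes higher and 0 lower, 602 and 268 of all genes, a median of 1.48 for the 10, and 7 higher and 2 lower by interval. The 5-library scaling gave 4 and 1, 208 and 727, a median of 0.74, and 6 higher by interval. Centring gave 4 and 0, 315 and 328, a median of 0.80, and 6 higher by interval. A pseudocount of 5 left 1 of the 10 higher and 1 lower and 486 of all genes lower. At a level of at least 5, only 7 of the 10 and 1385 genes in all were compared, and FOSB was not among them. Of the 7, 1 was higher and 3 were lower, against 50 and 966 of the 1385. Without a pseudocount, chosen after seeing the data, 3033 were lower; at 1.5-fold 114 were higher and 3115 lower.

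By interval the 10 genes lower with CGI-1746 were 0 under each of the 3 scalings; with LU-102 they were 2 (4-library scaling), 3 (5-library scaling) and 2 (centring); with both agents 4 (4-library) and 6 (5-library). For the combination against CGI-1746 they were 6 (4-library) and 7 (5-library). For the combination against LU-102, 1 was higher and 1 lower under each of the 3 scalings. For LU-102 against bortezomib 6 were lower under each of the 3, and 1 was higher (4-library). Shares of all genes by interval were counted in the deposited levels only, so none of these rescaled interval counts has an all-gene share beside it. The small counts of all genes moved with the settings. For CGI-1746 against mock, genes higher were 9 with a pseudocount of 0.5, 1 with a pseudocount of 5, 3 at a level of 5, 14 without a pseudocount and 17 at 1.5-fold, and genes lower were 1 under the 5-library scaling, 0 with a pseudocount of 5, 7 without one and 7 at 1.5-fold. For LU-102 against mock, genes higher were 0 with a pseudocount of 5, 1 at a level of 5, 8 without a pseudocount and 17 at 1.5-fold, and genes lower 3 at 1.5-fold. For both agents against mock, genes higher were 3 with a pseudocount of 5, 15 without one and 32 at 1.5-fold, and genes lower 1 under the 5-library scaling, 1 at a level of 5, 0 with a pseudocount of 5, 5 without one and 8 at 1.5-fold. For CGI-1746 against LU-102, genes higher were 5 with a pseudocount of 0.5, 0 with a pseudocount of 5, 0 at a level of 5, 5 without a pseudocount and 16 at 1.5-fold, where 1 of the 10 genes (KLF10) was higher, and genes lower were 3, 0, 0, 8 and 18. Departures from additivity of all genes were 10 with a pseudocount of 0.5, 1 with a pseudocount of 5, 2 at a level of 5 and 17 without a pseudocount. With the longest transcript in place of the span, 0 of the 10 genes gave whole reads in all 5 libraries. Fewer genes were tested at a level of 5; the cause of the other moves was not tested. Depth limits JUNB (63 to 92 reads), EGR1 (38 to 119) and FOSB (87 to 611) most.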

Other observations

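Because the deposited levels divide reads by the whole gene span, the order of the 10 genes changes when reads are divided by the longest annotated transcript instead. In the mock library IER3 had 1867 reads per kilobase of transcript, FOSL1 1218, MYC 700, JUN 286, JUND 275, IER2 182, KLF10 179, FOSB 42.1, EGR1 37.0 and JUNB 34.6. FOSL1 is then above MYC and JUN, whereas by deposited level (14.2) it is below JUN (18.4) and JUND (15.8). Plain ratios of 1 gene between libraries do not depend on the length used. Differences on the log2(level + 1) scale do depend on it, because the pseudocount is fixed.

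In the authors' deposited table the FDR for bortezomib against mock is 8.34e-07 for JUND and 3.58e-05 for IER3, and 5.69% of all genes are under 0.05. In the authors' deposited table the FDR of FOSB in that comparison is 0.673 and that of FOSL1 is 0.176. The recovered reads were 611 against 159 for FOSB and 483 against 2032 for FOSL1. Those deposited p-values take the levels, 4.57 and 1.31 for FOSB, as if they were read counts. None of the 10 genes is under 0.05 in the other 5 deposited comparisons, where 0.0714% to 0.333% of all genes are.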
